A study of Rattus norvegicus with 6 samples.

Results

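Chemokines and their receptors were examined in RNA-seq of rat aorta: all rows of the deposited table whose symbol joins Ccl, Cxcl, Cx3cl, Xcl, Ccr, Cxcr, Cx3cr, Xcr or Ackr to a number. There were 55 such genes of 24005, made up of 34 ligands and 21 receptors. The 6 libraries came from aorta of rats with chronic kidney disease, 3 of them from the exosome group and 3 from the saline group. The exosome group had been given 10 mg/kg of the exosomes called ANCR/E7-EXO in the labels, 1 dose every 5 days through a tail vein, and the saline group an equal volume of saline over 13 weeks. All rats of both groups had 5/6 of their kidney mass removed in 2 operations and ate a diet with 1.2% phosphorus, which speeds up calcification of the vessel wall. Exosomes are small vesicles that cells release, and ANCR (DANCR) is a long non-coding RNA. Of the rats, strain, sex, age and whether each gave 1 library are not given in these sources, so that p-values cover only the spread between the 6 libraries. No group without kidney disease was analysed here. The comparison asked which chemokine genes of the diseased aorta differed with the exosome treatment.

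Chemokines are small secreted proteins that direct the movement of leukocytes. They are named after the spacing of their conserved cysteines (CC, CXC, CX3C and XC) and act through G protein-coupled receptors, while the atypical receptors (Ackr) bind chemokines without G protein signalling and take them up or transport them. Inflammatory ligands are induced by cytokines through NF-kB or interferon signalling, and homeostatic ligands are made constantly by stromal cells. In the artery wall, smooth muscle cells, endothelium, adventitial fibroblasts and resident macrophages all make chemokines, and CCL2 with its receptor CCR2, CX3CL1 with CX3CR1 and CXCL12 with CXCR4 are the axes best known from studies of vascular disease.

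Values were FPKM, which divides the reads of a gene by its length and by the library's total, so levels of different genes can be compared per length. The steps of the FPKM values implied totals of 28063355 to 44561082 reads or read pairs per library, with exosome 3 the deepest and exosome 2 the shallowest. The tissue label fitted the markers: the summed FPKM of 5 smooth muscle genes (Myh11, Acta2, Tagln, Cnn1, Myocd) was 14333 to 20586 in exosome libraries and 12893 to 20736 in saline libraries. Zbtb16 was the only gene of 11742 tested that passed the adjusted threshold, at 48.5 ± 3.58 FPKM in exosome libraries and 10.8 ± 1.76 FPKM in saline libraries (SD, n = 3 each, limma adjusted p = 0.00806). Its adjusted p was 0.0503 without exosome 1 and 0.0865 without saline 3. Libraries also differed in tissue around the aorta. The sum of 4 mesothelial markers (Msln, Upk3b, Krt19, Wt1) was 0.228 to 4.56 FPKM in exosome libraries and 0.216 to 26.3 FPKM in saline libraries, with saline 1 highest, and the sum of 5 adipocyte markers (Adipoq, Plin1, Cidec, Lep, Ucp1) was 86.9 to 169 FPKM in exosome libraries and 97.4 to 317 FPKM in saline libraries, with saline 2 highest.

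Most chemokine genes were expressed at low levels, and a few stromal and endothelial ones made up most of the signal. Of the 55 genes, 35 had reads in all 6 libraries, 15 in some of them, and 5 (Ccl20, Ccl26, Ccl28, Ccr8 and Cxcr1) were listed at 0 in every library. Their FPKM summed to 167, 213 and 289 in exosome 1, 2 and 3, against 199, 247 and 206 in saline 1, 2 and 3. Cxcl12, Ackr3 and Ccl21 together took 51.3% to 56.4% of that sum in each library. The mean over the 6 libraries was at least 1 FPKM for 24 genes, and only these entered the test.

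**Figure D1:**
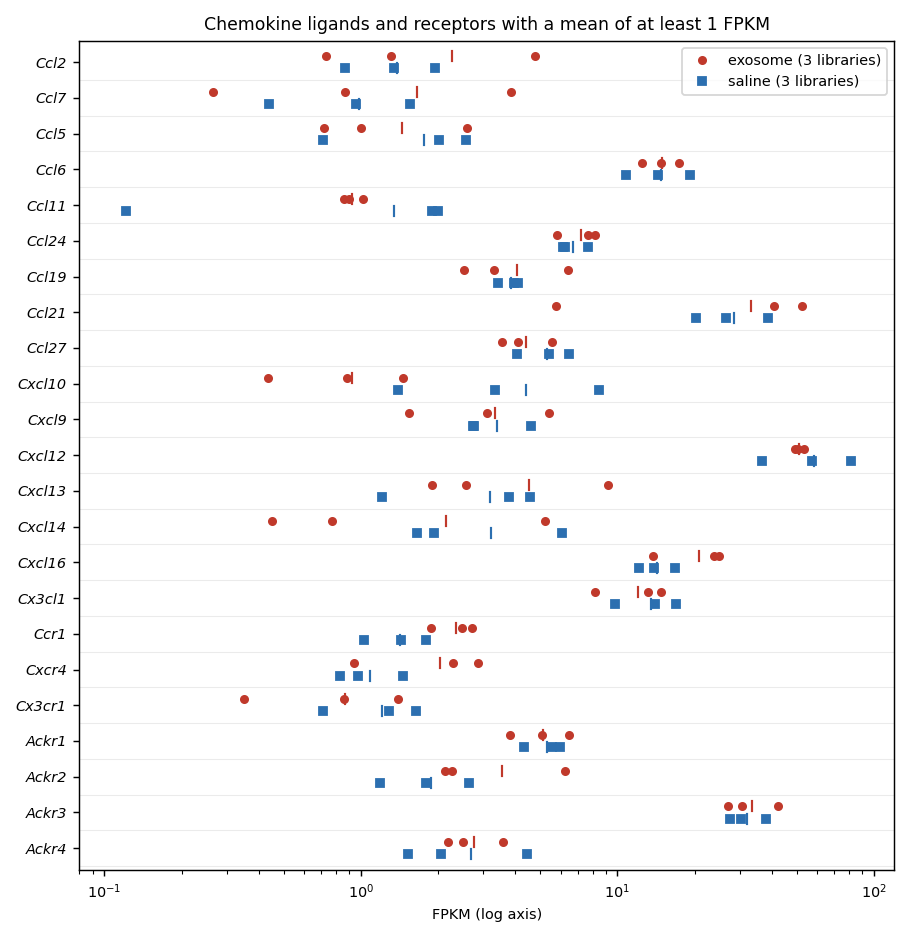
FPKM (log axis) of 23 of the 24 chemokine genes with a mean of at least 1 FPKM, with circles for the 3 exosome libraries above squares for the 3 saline libraries of each gene and short vertical lines for the group means. Cxcl12, Ackr3 and Ccl21 were the most abundant, and for all genes but Ccr1 the points of the groups overlapped.

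No chemokine gene passed the adjusted threshold. With limma on log2(FPKM + 1), two-sided and adjusted by the Benjamini-Hochberg method over all 11742 genes with a mean of at least 1 FPKM, 0 of the 24 genes passed at 0.05, where the share over all tested genes was 0.00852%. Their adjusted p ranged from 0.288 to 1. At an unadjusted p under 0.05, Ccr1 was higher, where 6.75% of all tested genes were, and Cxcl10 was lower, where 9.24% of all tested genes were. Limma-voom, run on the whole reads that the FPKM values imply, called none of the 24 at the adjusted threshold. The groups did not overlap for 1 of the 24 genes, Ccr1, where 21.1% of all tested genes had groups that did not overlap (9.40% higher and 11.7% lower). Of the 24 differences 12 were above 0 and 12 below, with a median of 0.02, where the median of all tested genes was -0.073 and 39.3% were above 0. In whole tissue, fewer cells of a type and less RNA per cell cannot be told apart. Split by kind, 6 of the 16 tested ligands and 6 of the 8 tested receptors had a difference above 0.

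**Figure D2:**
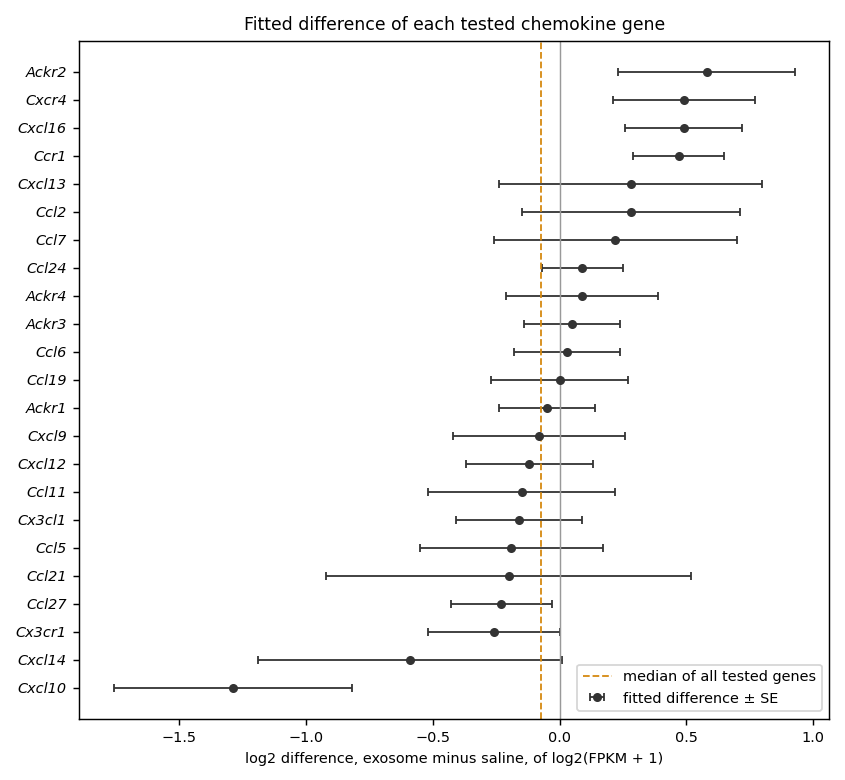
Fitted log2 difference of log2(FPKM + 1), exosome minus saline, for 23 of the 24 tested chemokine genes, with bars of 1 standard error of limma and a dashed line at the median of all tested genes (-0.073). Cxcl10 stands lowest at -1.29, while Ackr2, Cxcr4, Cxcl16 and Ccr1 lie between 0.47 and 0.58.

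Of the ligands of CXCR3, the receptor that draws activated T cells and natural killer cells, Cxcl10 and Cxcl11 had lower values in exosome libraries and Cxcl9 did not. All 3 genes are known as targets of interferon signalling, and they lie near each other on chromosome 14 of the GRCr8 assembly. Cxcl10 stood at 0.436, 0.880 and 1.46 FPKM in exosome 1, 2 and 3, against 1.39, 8.44 and 3.34 FPKM in saline 1, 2 and 3. The groups overlapped only in that exosome 3 lay just above saline 1, and saline 2 was far above the rest. The means were 0.927 ± 0.516 and 4.39 ± 3.64 FPKM (SD, n = 3 each), a log2 difference of -1.29 with a standard error of 0.47, and the limma adjusted p was 0.288. Without saline 2 the log2 difference was -0.778. The gene rested on 17, 28 and 74 reads in exosome 1, 2 and 3, against 53, 284 and 129 reads in saline 1, 2 and 3.

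Cxcl11 lay under the expression minimum. It had 0.0552, 0 and 0.234 FPKM in exosome 1, 2 and 3, against 0.226, 0.832 and 0.363 FPKM in saline 1, 2 and 3, from at most 26 reads per library. As for Cxcl10, saline 2 was highest, and exosome 3 lay just above saline 1. In the limma fit that kept all 18430 genes above 0, Cxcl11 had a log2 difference of -0.41, an unadjusted p of 0.0400 and an adjusted p of 0.405. In that fit 12.0% of genes had an unadjusted p under 0.05 (5.01% higher and 6.98% lower), and 0.00543% passed the adjusted threshold. Cxcl9 stood at 3.10, 1.54 and 5.39 FPKM in exosome 1, 2 and 3, against 2.74, 4.62 and 2.76 FPKM in saline 1, 2 and 3, so that its extremes both fell in exosome libraries (log2 difference -0.08, adjusted p = 0.910). The ratio of Cxcl10 to Cxcl9 FPKM was 0.141, 0.570 and 0.272 in exosome 1, 2 and 3, against 0.508, 1.83 and 1.21 in saline 1, 2 and 3. Cxcl10 and Cxcl11 both overlap Art3 in the GRCr8 gene table, and whether reads were counted by strand is not known from the sources used here. Art3 had 2.53, 3.14 and 3.53 FPKM in exosome 1, 2 and 3, against 2.79, 6.66 and 2.65 FPKM in saline 1, 2 and 3, and so was highest in saline 2 too. The part of Art3 reads in the Cxcl10 and Cxcl11 values was not tested. The receptor gene Cxcr3 had 6 to 16 reads in exosome libraries and 4 to 10 reads in saline libraries.

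The promoters of the CXCR3 ligands are shown because these genes are textbook targets of NF-kB and interferon factors, and those of Cxcl1 and Cxcl2 because these neutrophil-attracting ligands are described next. Each sequence is the 250 bases before the gene's start, 5′ to 3′ along the gene, from RefSeq on GRCr8: Cxcl10 at chr14:15988816-15989065 (+ strand), Cxcl11 at chr14:15973478-15973727 (+ strand), Cxcl9 at chr14:16006916-16007165 (+ strand), Cxcl1 at chr14:17479322-17479571 (- strand) and Cxcl2 at chr14:17467256-17467505 (- strand). Capitals mark matches on either strand to GGG and TTCC with any 3 bases between them, a pattern like the NF-kB site, or to a pair of GAAA with any 2 bases between them, a pattern like the interferon-stimulated response element. Matches on opposite strands that overlap are marked as 1 run.
Cxcl10: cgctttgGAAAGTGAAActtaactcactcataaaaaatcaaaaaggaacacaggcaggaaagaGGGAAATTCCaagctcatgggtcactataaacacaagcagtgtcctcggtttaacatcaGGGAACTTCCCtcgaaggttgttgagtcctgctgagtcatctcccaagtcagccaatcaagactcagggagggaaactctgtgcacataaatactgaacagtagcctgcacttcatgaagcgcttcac
Cxcl11: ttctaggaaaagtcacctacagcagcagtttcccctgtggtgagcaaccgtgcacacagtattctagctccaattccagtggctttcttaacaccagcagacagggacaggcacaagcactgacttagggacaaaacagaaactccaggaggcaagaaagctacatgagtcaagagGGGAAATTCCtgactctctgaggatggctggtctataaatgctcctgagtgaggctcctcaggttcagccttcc
Cxcl9: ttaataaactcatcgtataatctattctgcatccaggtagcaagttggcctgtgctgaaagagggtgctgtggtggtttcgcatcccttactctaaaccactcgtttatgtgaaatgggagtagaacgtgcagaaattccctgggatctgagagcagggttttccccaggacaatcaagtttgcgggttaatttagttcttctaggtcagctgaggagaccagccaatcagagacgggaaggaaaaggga
Cxcl1: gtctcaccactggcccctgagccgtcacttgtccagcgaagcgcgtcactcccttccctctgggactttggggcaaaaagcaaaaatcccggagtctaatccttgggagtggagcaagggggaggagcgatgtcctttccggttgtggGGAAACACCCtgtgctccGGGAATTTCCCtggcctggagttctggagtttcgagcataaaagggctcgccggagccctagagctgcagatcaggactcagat
Cxcl2: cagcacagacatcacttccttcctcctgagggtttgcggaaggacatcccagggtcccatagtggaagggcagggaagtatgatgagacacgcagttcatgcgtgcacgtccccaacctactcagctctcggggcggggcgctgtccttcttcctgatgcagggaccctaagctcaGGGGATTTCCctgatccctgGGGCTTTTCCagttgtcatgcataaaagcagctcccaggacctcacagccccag

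Within windows from 250 bases before to 50 bases after the start, the NF-kB-like pattern matched on either strand in 10 of the 41 chemokine genes found in the promoter table (24.4%), against 1792 of all 33365 distinct windows (5.37%). They were Ccl6, Ccl7, Ccl9, Ccl20, Ccr3, Cxcl1, Cxcl2, Cxcl6, Cxcl10 and Cxcl11. Genes without a promoter entry, among them Ccl2, Ccl3, Ccl4, Ccl5, Ccl11 and Cxcl3, were not searched. The interferon-type pattern matched in 2 of the 41, Cxcl10 and Ccl19 (4.88%), against 3.92% of all windows. The Cxcl9 window held neither pattern. A match is a description of letters and not evidence of binding. Of the 10 genes with the first pattern, Ccl6, Ccl7 and Cxcl10 were abundant enough to be tested, with log2 differences of 0.03, 0.22 and -1.29, and these did not share 1 sign.

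Of the ligands of CCR2 and CXCR2, which recruit monocytes and neutrophils, Ccl2, Ccl7, Ccl12, Cxcl1 and Cxcl2 had their highest values in 1 exosome library, exosome 3. Ccl2, the main monocyte chemoattractant, stood at 1.31, 0.731 and 4.78 FPKM in exosome 1, 2 and 3, against 1.95, 1.34 and 0.867 FPKM in saline 1, 2 and 3. Ccl7, a close relative of Ccl2, stood at 0.865, 0.265 and 3.84 FPKM in exosome 1, 2 and 3, against 1.55, 0.961 and 0.437 FPKM in saline 1, 2 and 3. Both genes had their highest value in exosome 3 and their lowest in exosome 2, so the exosome group spanned the whole saline group. The log2 differences were 0.28 ± 0.43 for Ccl2 and 0.22 ± 0.48 for Ccl7 (SE, limma adjusted p = 0.747 and 0.824), and without exosome 3 they were -0.231 and -0.329. Ccl12, which acts on CCR2 in mouse, had 20 reads in exosome 3 and 0 to 5 in the other libraries. The deposited table had no row named Ccr2, so this receptor was not examined.

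Cxcl1, a neutrophil attractant that acts on CXCR2, was likewise highest in exosome 3, at a mean under the minimum. It had 0.156, 1.03 and 2.86 FPKM in exosome 1, 2 and 3 (5, 27 and 119 reads), against 0.128, 0.397 and 0.410 FPKM in saline 1, 2 and 3 (4, 11 and 13 reads). Exosome 2 and 3 lay above all saline libraries and exosome 1 did not, and the log2 difference without a filter was 0.68 (unadjusted p = 0.15). Cxcl2, its close relative, was named after its values were seen: it had 2, 6 and 17 reads in exosome 1, 2 and 3, against 0, 0 and 2 reads in saline 1, 2 and 3, with an unadjusted p of 0.0382 and an adjusted p of 0.402 without a filter. Cxcl3 and Cxcl6 had at most 2 reads in any library. Of the receptors, Cxcr2 stood at 0.109 to 0.503 FPKM in exosome libraries and 0.299 to 0.617 FPKM in saline libraries. Neutrophil and inflammatory monocyte markers (S100a8, S100a9, Csf3r, Mpo, Camp, Lcn2, Plac8) summed to 8.42, 15.5 and 19.6 FPKM in exosome 1, 2 and 3, against 13.0, 22.3 and 12.7 FPKM in saline 1, 2 and 3. None of the 7 was at 0 in all libraries, although Camp had a value above 0 in exosome 3 alone, and their part in the Cxcl1 and Ccl2 values was not tested.

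The receptor Ccr1, which binds Ccl3, Ccl5 and other inflammatory CC ligands and is carried by monocytes and macrophages, was the only tested chemokine gene whose groups did not overlap. It stood at 2.72, 2.47 and 1.87 FPKM in exosome 1, 2 and 3, against 1.43, 1.79 and 1.03 FPKM in saline 1, 2 and 3. The lowest exosome value lay close above the highest saline value. The means were 2.35 ± 0.438 and 1.42 ± 0.377 FPKM (SD, n = 3 each), the log2 difference was 0.47 ± 0.18 (SE), and the limma adjusted p was 0.291. Macrophage markers had differences of the same sign, with 9 of 9 (Cd68, Adgre1, Csf1r, Cd163, Mrc1, C1qa, C1qb, C1qc, Cd14) above 0 in log2 difference, 6 of them with groups that did not overlap (9.40% of all tested genes had such groups with higher values), and none past the adjusted threshold. Their FPKM summed to 162, 152 and 182 in exosome 1, 2 and 3, against 106, 127 and 116 in saline 1, 2 and 3. Within the exosome libraries this sum was highest in exosome 3, where Ccr1 was lowest. The part of these markers in the Ccr1 difference was not tested. Cd163, a scavenger receptor of resident macrophages, had the lowest p of these markers (log2 difference 1.09, adjusted p = 0.143), followed by the mannose receptor Mrc1 (0.62, adjusted p = 0.237) and the complement genes C1qb (0.52) and C1qc (0.50), both at an adjusted p of 0.255. Cd163 passed with quantile normalization (adjusted p = 0.049), and Cd163, Mrc1 and C1qb passed with both kinds of library weights described at the end, at adjusted p of 0.0114, 0.0133 and 0.0132 with the default method and 0.038, 0.0436 and 0.0436 gene by gene, while C1qc passed with the default method alone (0.0225). Over all tested genes, the default weights called 983 higher and 2285 lower, and the gene-by-gene weights 256 higher and 362 lower. Pan-leukocyte markers (Ptprc, Itgb2, Cd53, Coro1a, Laptm5) summed to 17.3 to 24.7 FPKM in exosome libraries and 17.3 to 20.4 FPKM in saline libraries.

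Ccl6 had higher levels than Ccl3, Ccl4 and Ccl5 in all libraries. It is a chemokine of rodent myeloid cells that acts on CCR1 in mouse, and it stood at 12.5, 14.8 and 17.3 FPKM in exosome 1, 2 and 3, against 14.4, 19.2 and 10.8 FPKM in saline 1, 2 and 3. The saline values enclosed the exosome values, and the log2 difference was 0.03 ± 0.21 (SE, adjusted p = 0.949). Ccl5, made mainly by T cells and natural killer cells, stood at 0.716, 1.0 and 2.60 FPKM in exosome 1, 2 and 3, against 2.57, 0.711 and 2.02 FPKM in saline 1, 2 and 3. Its log2 difference was -0.19 ± 0.36 (SE, adjusted p = 0.797). Ccl3 and Ccl4, the macrophage inflammatory proteins, had 3 to 19 reads in exosome libraries and 2 to 12 reads in saline libraries.

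Ccl21 and Ccl19, which guide dendritic cells and T cells into lymphatics and lymph nodes through CCR7, differed in their spread. Ccl21, made by lymphatic endothelium, stood at 5.76, 40.8 and 52.6 FPKM in exosome 1, 2 and 3, against 38.6, 20.2 and 26.4 FPKM in saline 1, 2 and 3. Exosome 1 lay far below all other libraries, while exosome 2 and 3 lay above all saline libraries. The log2 difference was -0.20 ± 0.72 (SE, adjusted p = 0.899), and it was 0.737 without exosome 1 and 0.041 without saline 1. Lymphatic markers (Lyve1, Prox1, Flt4, Pdpn, Mmrn1) all had FPKM values above 0 in every library. They summed to 16.9, 27.1 and 35.4 FPKM in exosome 1, 2 and 3, against 29.4, 17.4 and 15.1 FPKM in saline 1, 2 and 3. Mmrn1, a lymphatic endothelial gene, had 1.70, 7.78 and 10.1 FPKM in exosome 1, 2 and 3, against 7.54, 3.39 and 2.53 FPKM in saline 1, 2 and 3, and was lowest in exosome 1 and highest in exosome 3, as Ccl21 was. Flt4, the receptor of lymphatic growth factors, likewise had 0.928 FPKM in exosome 1 and 3.11 FPKM in exosome 3. Pdpn was unlike Ccl21, with its highest value in saline 1 and its lowest in saline 2. It had 5.22, 5.81 and 6.58 FPKM in exosome 1, 2 and 3, against 11, 4.48 and 4.57 FPKM in saline 1, 2 and 3 (log2 difference -0.06). Lyve1, also a gene of perivascular macrophages, had groups that did not overlap (8.93 to 14.9 FPKM in exosome libraries and 6.75 to 8.31 FPKM in saline libraries, adjusted p = 0.285). The part of lymphatic vessels in the Ccl21 values was not tested. Ccl19 stood at 2.52, 3.29 and 6.40 FPKM in exosome 1, 2 and 3, against 3.42, 3.96 and 4.11 FPKM in saline 1, 2 and 3. Its saline values lay close together inside the exosome range (adjusted p = 1). The receptor Ccr7 was scarcely detected, with 0 to 4 reads in exosome libraries and 1 to 13 in saline libraries.

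**Figure D3:**
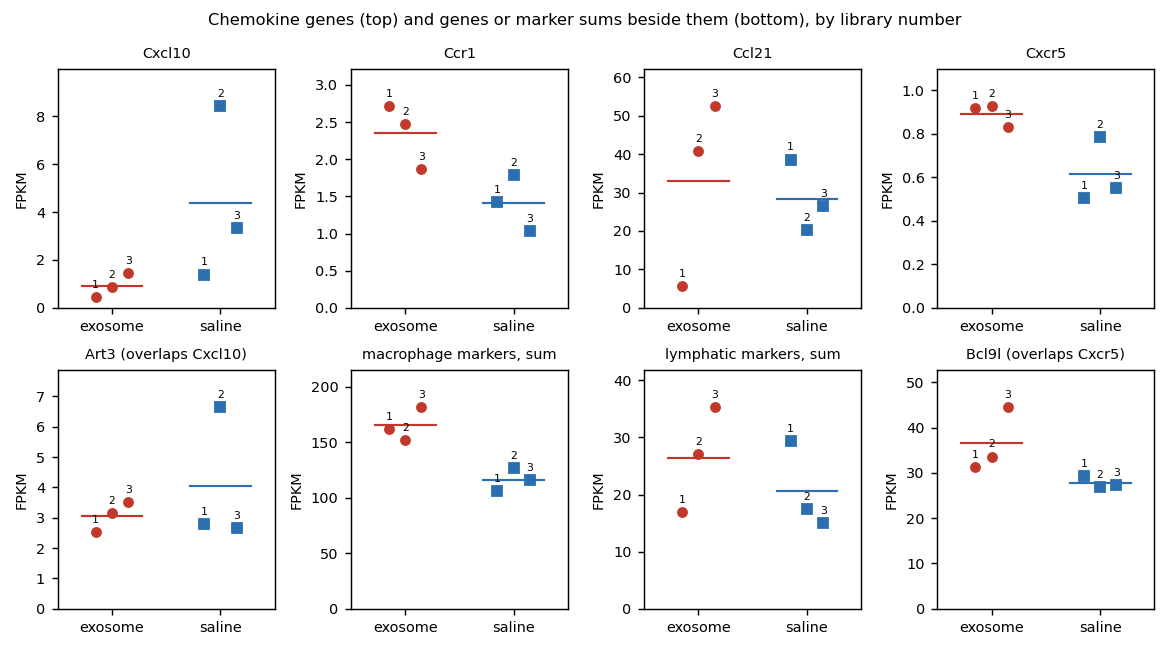
FPKM of 4 chemokine genes (top row) and of a gene or marker sum described beside each (bottom row), with the exosome libraries on the left and the saline libraries on the right of each panel, numbered by library, and horizontal lines at the group means. Cxcl10 overlaps between groups only through exosome 3 and saline 1 and Art3, like Cxcl10, is highest in saline 2, Ccr1 and the macrophage sum are both higher in all exosome libraries, Ccl21 and the lymphatic sum are both highest in exosome 3 and lower in exosome 1 than in the other exosome libraries, and Cxcr5 and Bcl9l are both higher in all exosome libraries. Within the exosome libraries, Ccr1 and Cxcr5 are lowest in exosome 3, where the macrophage sum and Bcl9l are highest.

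Cxcl12 was the most abundant chemokine of the aorta. It is made by stromal and smooth muscle cells and retains leukocytes and progenitors through CXCR4. It stood at 49.2, 50.7 and 53.3 FPKM in exosome 1, 2 and 3, against 36.7, 81.2 and 57.3 FPKM in saline 1, 2 and 3. The exosome libraries lay close together inside a wide saline range (SD 2.06 and 22.3 FPKM). The log2 difference was -0.12 ± 0.25 (SE, adjusted p = 0.821), and without saline 2 it was 0.15. Ackr3, the scavenger receptor for CXCL12, stood at 30.7, 27.0 and 42.4 FPKM in exosome 1, 2 and 3, against 27.4, 38.0 and 30.4 FPKM in saline 1, 2 and 3 (log2 difference 0.05 ± 0.19 SE, adjusted p = 0.909). The signalling receptor Cxcr4 was far lower, at 0.937, 2.29 and 2.86 FPKM in exosome 1, 2 and 3, against 0.977, 1.46 and 0.826 FPKM in saline 1, 2 and 3. Exosome 2 and 3 lay above all saline libraries, while exosome 1 lay among them. The log2 difference of Cxcr4 was 0.49 ± 0.28 (SE), with an adjusted p of 0.393, and it was 0.287 without exosome 3 and 0.785 without exosome 1. Per length, the Ackr3 level was 11.8 to 32.8 times that of Cxcr4 in exosome libraries and 26.0 to 36.8 times in saline libraries.

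Among the tested CXC ligands not yet described, Cxcl16 had the smallest p. It is a membrane-bound chemokine that also takes up oxidised lipoprotein, and it stood at 13.8, 23.7 and 24.9 FPKM in exosome 1, 2 and 3, against 16.7, 13.9 and 12.1 FPKM in saline 1, 2 and 3. Exosome 2 and 3 lay above all saline libraries and exosome 1 inside the saline range. The log2 difference was 0.49 ± 0.23 (SE), with an unadjusted p of 0.0694 and an adjusted p of 0.338. Cxcl16 overlaps Zmynd15 in the GRCr8 gene table. Zmynd15 lay under the minimum at 1.29, 1.41 and 1.40 FPKM in exosome 1, 2 and 3, against 0.519, 0.43 and 0.535 FPKM in saline 1, 2 and 3, so its groups were apart. Whether the reads of these genes mix was not tested. Cxcr6, the receptor of CXCL16, had 9, 17 and 27 reads in exosome 1, 2 and 3, against 10, 13 and 4 reads in saline 1, 2 and 3. It overlaps Fyco1, which had 14.8 to 17.1 FPKM in exosome libraries and 16.4 to 17.2 FPKM in saline libraries, so its value is uncertain too.

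Cxcl13, which attracts B cells through CXCR5, stood at 1.89, 2.57 and 9.18 FPKM in exosome 1, 2 and 3, against 3.78, 1.21 and 4.58 FPKM in saline 1, 2 and 3. Exosome 3 lay far above all other libraries, and the log2 difference was 0.28 ± 0.52 (SE, adjusted p = 0.798), but -0.28 without exosome 3 and -0.132 without saline 2. Jchain, a gene of antibody-secreting cells, had 5.03, 1.17 and 12.9 FPKM in exosome 1, 2 and 3, against 2.78, 4.10 and 3.16 FPKM in saline 1, 2 and 3, and was also highest in exosome 3, while the B cell genes Cd79a, Cd79b and Ms4a1 each stayed under 0.5 FPKM in all libraries. The part of such cells in the Cxcl13 values was not tested. Cxcr5 was under the minimum with groups that did not overlap, at 0.918, 0.929 and 0.831 FPKM in exosome 1, 2 and 3, against 0.504, 0.786 and 0.551 FPKM in saline 1, 2 and 3. Such separation was seen for 9.45% of genes under the minimum (3.20% higher and 6.25% lower). In the limma fit of all genes above 0, Cxcr5 had a log2 difference of 0.23, with an unadjusted p of 0.0451 and an adjusted p of 0.410. The gene overlaps Bcl9l, a coactivator of Wnt signalling, whose level was 31.3, 33.6 and 44.6 FPKM in exosome 1, 2 and 3, against 29.2, 26.9 and 27.3 FPKM in saline 1, 2 and 3. Bcl9l groups did not overlap either (log2 difference 0.37, adjusted p = 0.294), and the part of its reads in the Cxcr5 value was not tested.

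Cxcl14, a chemokine of epithelia and fibroblasts, varied widely within both groups. It stood at 0.450, 0.772 and 5.22 FPKM in exosome 1, 2 and 3, against 6.07, 1.65 and 1.93 FPKM in saline 1, 2 and 3. Saline 1 and exosome 3 held the highest values, and the log2 difference was -0.59 ± 0.60 (SE, adjusted p = 0.618). It was -1.245 without exosome 3, -0.145 without saline 1, -0.194 without exosome 1 and -0.339 without exosome 2. Cxcl17, a mucosal chemokine, had 15 to 27 reads in exosome libraries and 10 to 29 reads in saline libraries.

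Cx3cl1, or fractalkine, a membrane-bound chemokine of endothelium and smooth muscle, stood at 8.20, 13.2 and 14.8 FPKM in exosome 1, 2 and 3, against 9.77, 14.0 and 16.9 FPKM in saline 1, 2 and 3. The groups covered nearly the same range, with a log2 difference of -0.16 ± 0.25 (SE, adjusted p = 0.748). Its receptor Cx3cr1, carried by monocytes and some resident macrophages, stood at 0.856, 0.349 and 1.39 FPKM in exosome 1, 2 and 3, against 1.64, 0.712 and 1.29 FPKM in saline 1, 2 and 3. Cx3cr1 was lowest in exosome 2 (log2 difference -0.26 ± 0.26 SE, adjusted p = 0.614), although the macrophage marker sum was higher in all exosome libraries. The difference was -0.049 without exosome 2, -0.124 without saline 1, -0.461 without exosome 3 and -0.437 without saline 2. Xcl1 had 2 reads in exosome 3 and none elsewhere, and its receptor Xcr1 had at most 8 reads per library.

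The eotaxins attract eosinophils through CCR3, and of these Ccl24 and Ccl11 were tested. Ccl24 stood at 8.18, 5.80 and 7.66 FPKM in exosome 1, 2 and 3, against 6.27, 7.67 and 6.14 FPKM in saline 1, 2 and 3 (log2 difference 0.09 ± 0.16 SE, adjusted p = 0.782), with the smallest standard error of the 24 tested genes. Ccl11 stood at 0.863, 1.02 and 0.895 FPKM in exosome 1, 2 and 3, against 0.122, 2.0 and 1.89 FPKM in saline 1, 2 and 3. Its exosome values lay close together between a very low saline 1 and high saline 2 and 3 (adjusted p = 0.849), and the log2 difference of -0.15 was -0.614 without saline 1, 0.095 without saline 2 and 0.069 without saline 3. Ccr3 had 2 to 12 reads in both groups. Ccl27, a skin chemokine that acts on CCR10, stood at 5.54, 4.11 and 3.55 FPKM in exosome 1, 2 and 3, against 5.42, 4.07 and 6.45 FPKM in saline 1, 2 and 3 (adjusted p = 0.567). It overlaps Il11ra1, which had 112 to 187 FPKM in exosome libraries and 122 to 165 FPKM in saline libraries, so its value may hold reads of that gene and is uncertain. Ccr10, which overlaps Cntnap1, had 8, 14 and 15 reads in exosome 1, 2 and 3, against 16, 20 and 44 reads in saline 1, 2 and 3.

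The atypical receptors were all expressed above the minimum. Ackr2, which degrades inflammatory CC chemokines and is known from lymphatic endothelium, stood at 2.13, 2.27 and 6.26 FPKM in exosome 1, 2 and 3, against 2.63, 1.80 and 1.19 FPKM in saline 1, 2 and 3. Exosome 3 alone lay above the saline range, and the log2 difference was 0.58 ± 0.35 (SE, adjusted p = 0.425), or 0.184 without exosome 3. Ackr1, which carries chemokines across venular endothelium, stood at 5.09, 3.82 and 6.49 FPKM in exosome 1, 2 and 3, against 4.34, 5.57 and 5.99 FPKM in saline 1, 2 and 3 (adjusted p = 0.902). Ackr4, which takes up CCL19, CCL21 and CCL25, stood at 2.51, 3.57 and 2.19 FPKM in exosome 1, 2 and 3, against 2.05, 4.44 and 1.53 FPKM in saline 1, 2 and 3 (adjusted p = 0.883). The exosome range of Ackr1 enclosed the saline values, and for Ackr4 the saline range enclosed the exosome values. Ackr4 overlaps Acad11, which had 3.72 to 7.50 FPKM in exosome libraries and 4.60 to 8.26 FPKM in saline libraries.

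A pattern of libraries ran across these genes. Of the 24 tested chemokine genes 12 had their highest value in exosome 3, where 16.1% of all tested genes had theirs, and 1 had its lowest value there, where 34.3% of all tested genes had theirs. Exosome 2 was highest for 0 of the 24 genes, where 20.6% of all tested genes had their highest value, and lowest for 7, where 9.15% of all tested genes had their lowest. Saline 3 was likewise lowest for 7, where 10.4% of all tested genes had their lowest. Saline 2 was highest for 6, where 16.5% of all tested genes had their highest. The 12 genes highest in exosome 3 included the ligands Ccl2, Ccl7, Ccl5, Ccl19, Ccl21, Cxcl9, Cxcl13 and Cxcl16 and the receptors Cxcr4, Ackr1, Ackr2 and Ackr3. The median deviation of the 24 genes from their own means, on the log2(FPKM + 1) scale, was -0.15, -0.20 and 0.34 in exosome 1, 2 and 3, against -0.07, 0.02 and -0.08 in saline 1, 2 and 3. The exosome libraries held both the lowest and the highest of these medians, and the median difference between groups was -0.179 without exosome 3. Exosome 3 also had the highest sums of the macrophage, pan-leukocyte and lymphatic markers given above, and T and NK cell markers (Cd3d, Cd3e, Cd3g, Cd2, Lck, Cd4, Cd8a, Nkg7, Gzmb) summed to 15.3, 17.7 and 21.5 FPKM in exosome 1, 2 and 3, against 15.3, 15.4 and 13.5 FPKM in saline 1, 2 and 3. Cd4, which rat macrophages also express, made up most of that sum. The other 8 markers summed to 1.04, 1.01 and 2.64 FPKM in exosome 1, 2 and 3, against 3.13, 2.08 and 1.5 FPKM in saline 1, 2 and 3, with saline 1 and not exosome 3 highest. The part of these cells in the chemokine values was not tested.

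**Figure D4:**
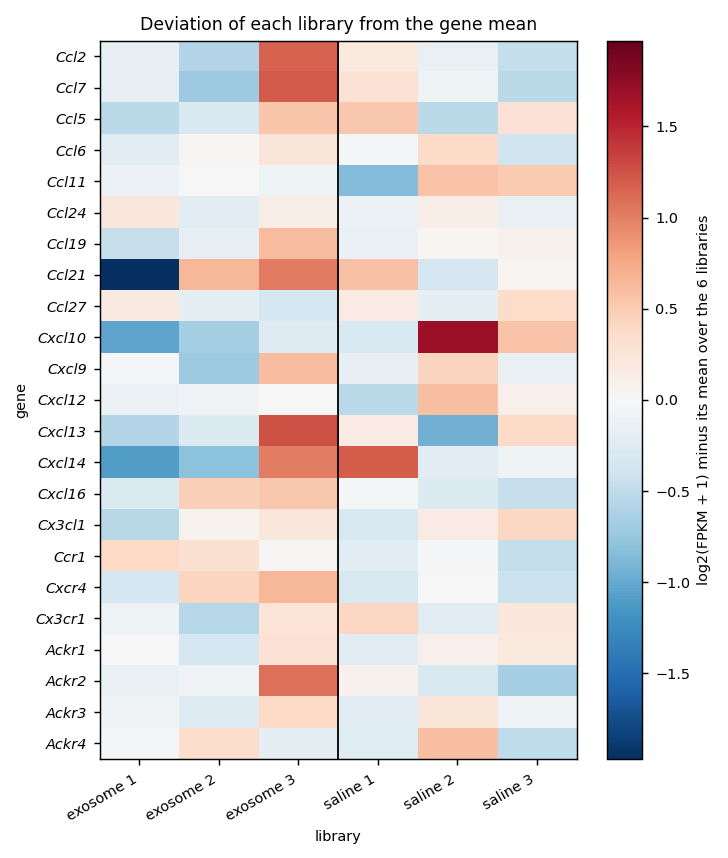
Deviation of log2(FPKM + 1) in each library from the mean of the gene over the 6 libraries, for 23 of the 24 tested chemokine genes (rows) with the exosome libraries left of the line and the saline libraries right of it. Red marks values above the mean and blue below, and exosome 3 is the highest library for 12 of the 23 genes.

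The members under the minimum that had reads numbered 26. Those with a mean above 0.2 FPKM were Cxcl1, Cxcr5, Cxcl17, Ccl4, Cxcr6, Cxcr2, Ccr10, Cxcl11, Ccl12 and Ccl3, described above. The other 16 had means of 0.00553 to 0.141 FPKM, the highest being Cxcr3. They included Ccl17 and Ccl22, ligands of CCR4 that attract regulatory and type 2 helper T cells, with at most 12 reads in a library. None of the 26 passed the adjusted threshold in the limma fit without a filter, where 0.00543% of all genes passed. Their smallest adjusted p in that fit was 0.402. Among the 26, Cxcr5 alone had groups that did not overlap, where 9.45% of all genes under the minimum had such groups.

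Genes that work with the chemokines were taken from lists. Of 30 genes of chemokine receptor signalling 25 were tested. Of these, 18 were above 0, where 39.3% of all tested genes were, and 7 below, with a median log2 difference of 0.14. None passed the adjusted threshold. The groups did not overlap for 6 with higher values and 2 with lower values, where the shares of all tested genes were 9.40% and 11.7%. The smallest p values were those of Prkcd, a protein kinase C (log2 difference 0.37, adjusted p = 0.256), Grk5, a kinase that turns off activated receptors (0.35, adjusted p = 0.256) and Vav1, a leukocyte exchange factor for Rac (0.54, adjusted p = 0.291). Vav1 stood at 1.16, 1.33 and 2.26 FPKM in exosome 1, 2 and 3, against 0.912, 0.659 and 0.694 FPKM in saline 1, 2 and 3. Like Ccr1, Vav1 had groups that did not overlap.

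A list of 17 cytokines and regulators of chemokine induction also held inhibitors such as Nfkbia, and 8 were tested. The log2 difference was above 0 for 6, where it was for 39.3% of all tested genes, and below 0 for 2. None passed. Of the inducing cytokines, Ifng and Il17a were listed at 0 in every library and Tnf was above 0 in exosome 3 alone. Nfkbia, the NF-kB inhibitor, stood at 64.4, 70.5 and 71.6 FPKM in exosome 1, 2 and 3, against 40.0, 23.6 and 26.6 FPKM in saline 1, 2 and 3 (log2 difference 1.20, adjusted p = 0.219). Nfkbia passed with library weights (0.0114 by the default method, 0.0422 gene by gene) and without saline 1 (0.0173). The default weights did not converge and called 983 genes higher and 2285 lower of 11742 tested. The gene-by-gene weights, tried after the data were seen, called 256 genes higher and 362 lower. Il6 lay under the minimum with groups apart, at 0.251, 0.341 and 0.365 FPKM in exosome 1, 2 and 3, against 0.0570, 0.0645 and 0 FPKM in saline 1, 2 and 3. It rested on 9, 10 and 17 reads in exosome 1, 2 and 3, against 2, 2 and 0 reads in saline 1, 2 and 3. In the limma fit of all genes above 0 its adjusted p was 0.353. Of all genes under the minimum, 3.20% had groups apart with higher values.

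Chemokine-system genes with other names gave 15 rows, of which 10 were tested, 4 above 0 and 6 below, and none passed. Rarres2, which encodes the attractant chemerin, stood at 86.5, 83.5 and 101 FPKM in exosome 1, 2 and 3, against 107, 131 and 121 FPKM in saline 1, 2 and 3. Its groups did not overlap (log2 difference -0.40, adjusted p = 0.262). Ccrl2, a receptor that presents chemerin, stood at 1.37, 1.17 and 1.68 FPKM in exosome 1, 2 and 3, against 1.58, 2.34 and 2.06 FPKM in saline 1, 2 and 3 (log2 difference -0.31, adjusted p = 0.382). Pf4, the platelet chemokine also named Cxcl4, stood at 25.2, 25.7 and 19.3 FPKM in exosome 1, 2 and 3, against 19.7, 14.9 and 37.5 FPKM in saline 1, 2 and 3. Of the other platelet genes, Itga2b had 0.735, 0.908 and 0.949 FPKM in exosome 1, 2 and 3, against 0.943, 0.487 and 2.11 FPKM in saline 1, 2 and 3, and like Pf4 was highest in saline 3 and lowest in saline 2. Gp9 was highest in saline 1 (0.732 FPKM) and at 0 in saline 2. Ppbp was highest in saline 3 (0.418 FPKM) and at 0 in saline 2 and in all exosome libraries. Gp1bb was listed at 0 in all libraries. The part of platelets in the Pf4 values was not tested.

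Cxcl10, Ccr1 and Cx3cl1 were called in 1 other setting. When libraries were weighted by limma's default method, which gave exosome 1 a weight of 9.20 and the others 0.30 to 1.14 and did not converge, their adjusted p were 0.0161, 0.0232 and 0.0498, among 983 genes called higher and 2285 called lower. Rarres2, Prkcd and Grk5 also passed with these weights, at adjusted p of 0.0147, 0.0175 and 0.0214. With weights by the gene-by-gene method, tried after the data were seen, the adjusted p of Cxcl10, Ccr1 and Cx3cl1 were 0.0542, 0.0801 and 0.189.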

How the data were processed

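The deposited values are FPKM per gene, which the authors made from RNA-seq of aorta (SMARTER mRNA-Seq kit, per the labels' protocols). The submitters' processing notes name DESeq2 1.28.1 with no role. Aligner, annotation, genome build and strand setting were not given in the sources used here. The steps of the FPKM values gave whole reads for all 18430 genes above 0 (largest residual 0.0005 reads), and 98.6% to 98.9% of each implied total lay on genes.

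Genes with a mean of at least 1 FPKM over the 6 libraries (11742) were fitted on log2(FPKM + 1) with limma 3.58.1 (R 4.3.3), with the trend option, no covariate and Benjamini-Hochberg adjustment over all tested genes. Fold changes on this scale understate those of low genes. The test was two-sided at 0.05. An exact permutation test of 3 against 3 libraries cannot go below 0.10. The fit was checked on simulated data. Of the 24 tested chemokine genes 23 were named with values (some genes are not reported here), and of those under the minimum the ones with a mean above 0.2 FPKM or groups that did not overlap. From each other list up to 4 genes with the smallest p were named. Genes named beyond this rule (Cxcl2, Cxcl3, Cxcl6, Cxcr3, Ccr7, Ccl17, Ccl22, Il6, Pf4, overlapping genes and single markers beside a result) were chosen after their values were seen. The members and lists were chosen with earlier results of these data known. Overlapping genes, promoters and symbols came from RefSeq on GRCr8, which held all 55 members, and 41 had a promoter entry. No genome coordinates from the study's own build were used. The alternatives numbered 18, of which 1 was added after the data were seen.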

Additional observations from a re-analysis of the deposited data

How the results depend on the processing

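Genes called over all tested genes numbered 1 higher and 0 lower. Quantile normalization gave 2 higher. Library weights gave 983 higher and 2285 lower, with 1 chemokine gene higher (Ccr1) and 2 lower (Cxcl10, Cx3cl1), and gene-by-gene weights, chosen after seeing the data, gave 256 higher and 362 lower with no chemokine gene. Leaving out libraries gave 0 to 2 higher and 0 to 7 lower, and no chemokine gene in any of these fits. The 0 higher came without exosome 1, without saline 3, and without exosome 1 and 3 together, and the 7 lower without saline 1. The cause was not tested. The median of the 24 chemokine genes ranged from -0.179 to 0.131.

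Deviations of same-numbered libraries correlated at 0.07, 0.10 and -0.17, and those of differently numbered libraries at -0.24 to 0.21. With 3 libraries per group, these values cannot decide whether the replicate numbers pair the samples. With the number as a replicate block 1 gene was called higher and 0 lower, and 0 chemokine genes.

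The following log2 differences changed sign. Ccl11 gave 0.069 with a pseudocount of 0.1 and 0.233 with limma-voom. Ccl19 gave 0.028 with values rescaled to equal sums, 0.061 with median of ratios, 0.111 with quantile normalization and 0.024 with limma-voom. Ackr1 gave 0.015 with median of ratios and 0.051 with quantile normalization, and Cxcl9 gave 0.044 with quantile normalization. Library weights gave Ackr3 -0.062, Ackr4 -0.006, Ccl27 0.025, Ccl6 -0.15, Cxcl13 -0.270, Cxcr4 -0.021, Mmrn1 -0.566 and Flt4 -0.172. Gene-by-gene weights gave Ackr3 -0.009, Ackr4 -0.033, Ccl6 -0.085 and Mmrn1 -0.146. With libraries left out, the lowest and highest log2 differences were -0.377 and 0.111 for Ackr1, -0.224 and 0.183 for Ackr3, -0.134 and 0.417 for Ackr4, -0.614 and 0.095 for Ccl11, -0.31 and 0.225 for Ccl19, -0.437 and 0.639 for Ccl2, -0.756 and 0.737 for Ccl21, -0.172 and 0.219 for Ccl24, -0.510 and 0.026 for Ccl5, -0.161 and 0.225 for Ccl6, -0.609 and 0.638 for Ccl7, -0.366 and 0.069 for Cx3cl1, -0.412 and 0.15 for Cxcl12, -0.28 and 0.629 for Cxcl13, -0.755 and 0.253 for Cxcl9, -0.099 and 0.447 for Flt4, -0.994 and 1.086 for Jchain, and -0.066 and 0.956 for Mmrn1. Where a fit left 1 exosome library, that library was assumed to vary like the others. Depth limits most the 26 chemokine genes with reads but under the minimum, several of which rest on fewer than 10 reads in all libraries together.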
